A study of Homo sapiens with 4 samples.

Results

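The transcripts of 30 genes that move zinc and copper across membranes, or sense these metals, were followed in OVSAYO cells, a human line of ovarian clear cell carcinoma (CCC). The genes are the SLC30A family (10 genes), the SLC39A family (14 genes), MTF1, and 5 copper transport genes (ATP7A, ATP7B, SLC31A1, SLC31A2 and ATOX1). The rule takes the spots whose RefSeq accession gives one of these symbols and uses no measured value. They have 46 of the 26222 probes with a symbol and make up 30 of 17721 genes. Each of 4 single-colour Agilent arrays held the RNA of 1 condition. In NS-si cells a negative control siRNA (Silencer, Ambion) had been transfected with a lipid reagent, and in Sp1-si cells siRNA against Sp1, a Dharmacon pool by the labels, whereas the study's supplementary methods name Santa Cruz Biotechnology as its source. NS-si → CoCl2 and Sp1-si → CoCl2 cells were transfected in the same way and then received 0.5 mM CoCl2 for 4 h, whereas NS-si and Sp1-si cells received none. The labels give 40 h of culture between transfection and CoCl2, whereas a figure legend of the study gives a shorter time. CoCl2 is a hypoxia-mimicking agent, and cobalt is itself a metal ion. The design asks which genes CoCl2 activates and which of these need Sp1. All of the RNA came from 1 cell line and 1 Sp1 siRNA reagent, so that other lines and siRNAs were not compared.

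Zinc leaves the cytosol through the proteins of the SLC30A family (ZnT), which carry it out of the cell or into vesicles and organelles. The SLC39A family (ZIP) works the other way and brings zinc into the cytosol from outside or from stores. MTF1 is the zinc-sensing transcription factor that binds metal response elements in the promoters of the metallothioneins and of SLC30A1. Copper enters through SLC31A1 (CTR1), is handed on by chaperones such as ATOX1, and is pumped into the secretory pathway or out of the cell by the ATPases ATP7A and ATP7B. Sp1 binds GC boxes in many promoters.

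Each array had 43376 spots outside the controls, for 41000 probes, and between 76.3% and 79.6% of these spots were well above background. The signal at the 75th percentile ranged from 977 to 1285 between the arrays, and levels are given as scaled signals, that is, signals divided by the 75th percentile of their array. Ratios are differences of their log2 values. The 46 probes of the metal transport genes have 1 spot each. Each condition was measured once, so no p-value was computed, array and condition cannot be told apart, and the number of arrays sets the precision. A difference of at least 1 on the log2 scale, a doubling or halving, is called past the fold. The only error available is a technical SD, the median SD between spots of the log2 ratio in the 50 probes with 10 spots that are nearest in signal, which covers the spots of an array and not differences between cultures. In RNA of a whole culture, fewer cells with a transcript and less of it per cell cannot be told apart. SP1 itself had a scaled signal of 0.484 for NS-si, 0.0356 for Sp1-si, 0.439 for NS-si → CoCl2 and 0.0301 for Sp1-si → CoCl2 cells, log2 ratios of -3.77 and -3.87 for the silencing. The carcinoma and epithelial markers NAPSA, PAX8, KRT7, KRT18, EPCAM and CDH1 were above background throughout, and NAPSA (-2.33) and CDH1 (-1.55) were lower after Sp1 silencing. COL3A1, PDGFRB, PTPRC, PECAM1 and CDH5, which mark fibroblasts, leukocytes and endothelium, did not reach this level on any array. COL1A2 and CD3E were dim but above it, with scaled signals of at most 0.28, and COL1A2 was lower after Sp1 silencing (0.0679 for NS-si and 0.0079 for Sp1-si). The part of these shifts in the ratios below was not tested.

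On all 4 arrays, 28 of the 30 genes were well above background. SLC39A12 was so on 3 arrays, and SLC30A8, the zinc transporter of insulin granules, on none, so that no ratio is given for it. With CoCl2 the counts of these genes past the fold were small, and so were the shares of all genes, given as background. In NS-si cells, none of 29 measured genes was past the fold upwards, against 3.79% of all genes, and 1 was past it downwards, the dim SLC39A12, against 3.22%. Their median log2 ratio was -0.04 and that of all genes was 0.00. In Sp1-si cells, CoCl2 gave 1 higher gene, SLC30A1, of 28 (background 3.47%) and 2 lower genes, SLC39A10 and MTF1 (background 3.64%). More of these genes were past the fold after Sp1 silencing, as held for all genes. Without CoCl2, 2 of 29 were higher in Sp1-si cells (SLC30A3 and SLC39A12, background 5.85%) and 4 were lower (SLC39A8, SLC39A10, SLC39A11 and ATP7A, background 5.82%). With CoCl2, 3 of 28 were higher (SLC30A3, SLC30A9 and ATOX1, background 7.09%) and 5 were lower (SLC39A8, SLC39A10, SLC39A11, MTF1 and ATP7A, background 7.67%). The lower genes after Sp1 silencing made up 13.8% of the measured genes without and 17.9% with CoCl2, shares that rest on 4 and 5 genes. The 5 became 2 without scaling between the arrays and 3 with quantile normalization, median scaling or normexp. The background of 7.67% does not hold for these smaller counts, since shares of all genes are not given under these settings. Without scaling, the median of all genes itself moved by 0.40 for Sp1 silencing with CoCl2. At a log2 ratio of 0.6, CoCl2 gave 0 higher (background 10.1%) and 2 lower (9.48%) for the control siRNA, and 2 higher (9.94%) and 2 lower (10.5%) with Sp1 silenced. At the same ratio, Sp1 silencing gave 5 higher (13.1%) and 6 lower (13.3%) without CoCl2, and 4 higher (16.2%) and 7 lower (17.1%) with it. The heat map of the ratios by gene shows the 4 comparisons side by side.

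**Figure D1:**
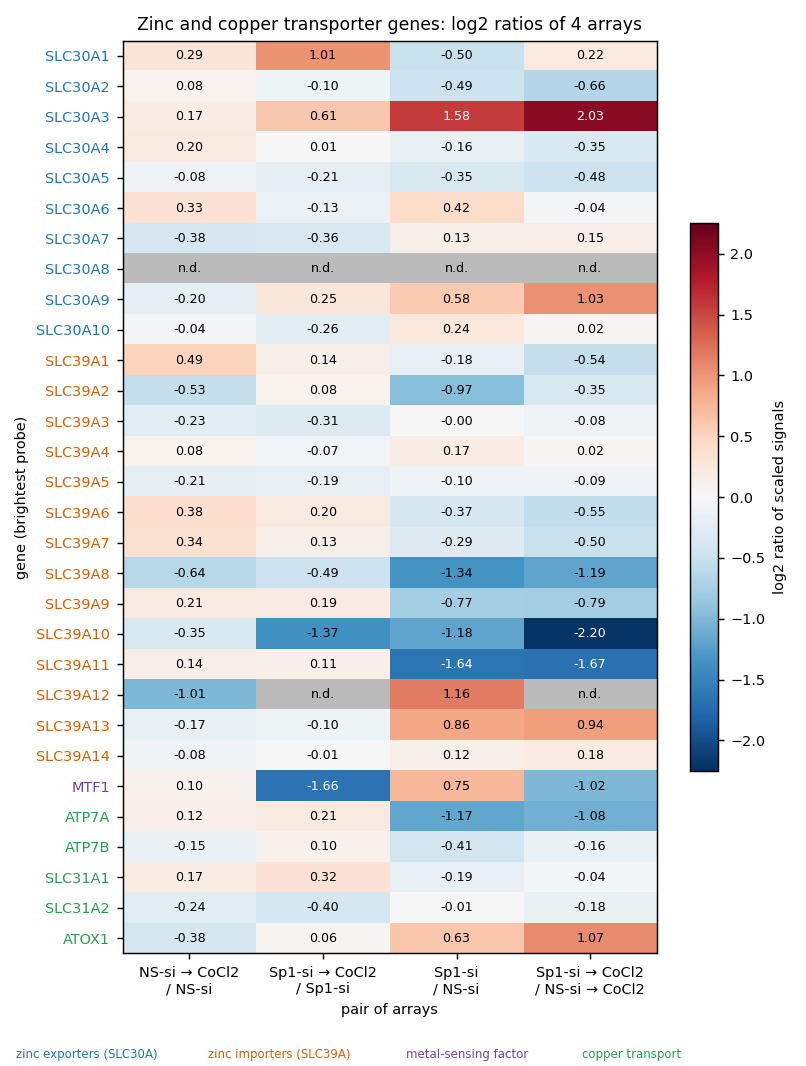
Log2 ratios of the scaled signals of the 30 zinc and copper transport genes, 1 row per gene in groups by role and 1 column per comparison, each from 1 array against 1 array; "n.d." marks a ratio that is not given because a signal was not well above background. The columns for CoCl2 are pale apart from SLC39A12, SLC30A1, SLC39A10 and MTF1, and the columns for Sp1 silencing show SLC30A3 (1.58 and 2.03) above 0 and SLC39A11 (-1.64 and -1.67), SLC39A8 (-1.34 and -1.19), SLC39A10 (-1.18 and -2.20) and ATP7A (-1.17 and -1.08) below it.

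The arrays without and with CoCl2 are separate, and so the effect of Sp1 silencing was measured on 2 pairs of arrays that share none. SLC39A8, SLC39A10, SLC39A11 and ATP7A were lower past the fold in both pairs. These are 4 of 28 genes (14.3%), against 575 of 14283 genes in all (4.03%). The 4.03% is given for the scaling used here only. The count of 4 rests on that scaling. Without it SLC39A8 (-0.79) and ATP7A (-0.68) fell short of the fold with CoCl2, which leaves 2 of the 4, and with quantile normalization, median scaling or normexp ATP7A fell short, which leaves 3. SLC30A3 was higher past the fold in both pairs, 1 of 28 (3.57%) against 4.19% of all genes. The scatter of the ratios without and with CoCl2 shows these 5 genes beyond the dashed lines on both axes and MTF1 on opposite sides of 0.

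**Figure D2:**
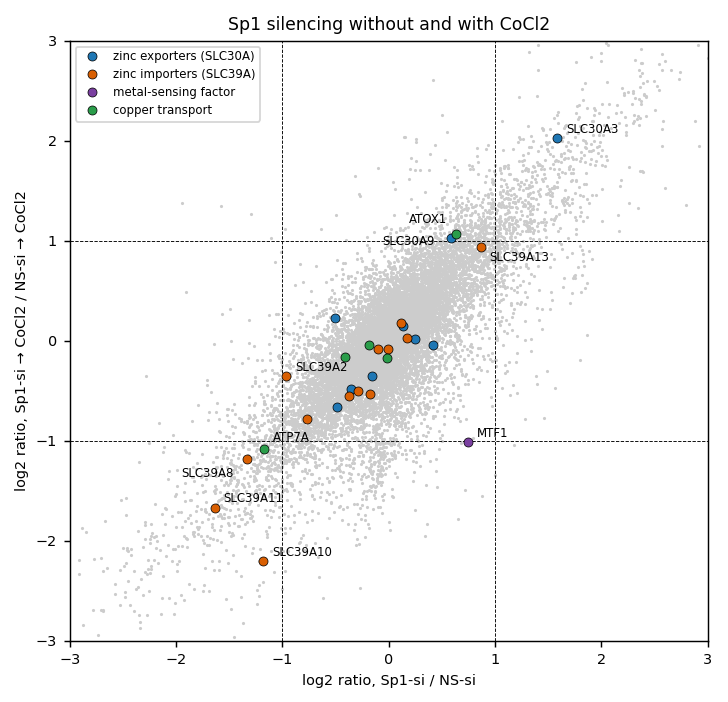
Log2 ratio of Sp1-si to NS-si cells without CoCl2 (x axis) and with CoCl2 (y axis) for the genes well above background on all 4 arrays, in grey, with the metal transport genes coloured by role; dashed lines mark a log2 ratio of 1 in size, and 59 of 14283 genes lie outside the axes. SLC30A3 lies at the upper right, SLC39A8, SLC39A10, SLC39A11 and ATP7A lie at the lower left, and MTF1 is at 0.75 without and -1.02 with CoCl2.

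Among the zinc exporters, SLC30A1, SLC30A3 and SLC30A9 were past the fold in at least 1 comparison. SLC30A1 (ZnT1), the exporter of the plasma membrane and a known MTF1 target, had scaled signals of 8.05 for NS-si, 5.68 for Sp1-si, 9.81 for NS-si → CoCl2 and 11.4 for Sp1-si → CoCl2 cells. Its level was thus lowest after Sp1 silencing alone and highest after Sp1 silencing with CoCl2. With CoCl2, NS-si cells gave a log2 ratio of 0.29 and Sp1-si cells one of 1.01, a difference of 0.72 against a technical SD of 0.04. The ratio in Sp1-si cells only just reached the fold, being 0.97 with quantile normalization and 0.95 with a normexp background correction. The ratio for Sp1 silencing was -0.50 without CoCl2 and 0.22 with it. The promoter of SLC30A1 is shown because MTF1 and Sp1 both have known motifs to look for in it. The 250 bases before its start in the RefSeq table (build GRCh38.p14, chr1:211579162-211579411, minus strand) read, 5′ to 3′ along the gene, as follows, with the core of the metal response element in capitals, which lies on the opposite strand.
SLC30A1: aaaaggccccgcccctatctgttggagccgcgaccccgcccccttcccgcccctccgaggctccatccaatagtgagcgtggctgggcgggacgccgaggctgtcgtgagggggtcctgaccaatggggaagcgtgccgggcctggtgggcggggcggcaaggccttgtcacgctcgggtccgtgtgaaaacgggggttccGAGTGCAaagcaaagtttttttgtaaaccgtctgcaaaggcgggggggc
This core, TGCACNC or TGCGCNC on either strand, begins 49 bases before the start, and the same window has 6 GC boxes (GGGCGG on either strand). The same search over 35116 RefSeq promoter windows of this length found the metal response core in 24.8% and the GC box in 42.6%. For the genes described here, the table gives 37 windows of 26 genes, of which 13 (35.1%) had the core and 19 (51.4%) a GC box. The core of the hypoxia response element, ACGTG, was in 8 of the 37 (21.6%) and in 18.5% of all windows, with a palindromic CACGTG counted on both strands. A match to such short letters is a description of the sequence only. SLC30A8, SLC39A4, SLC39A14 and SLC31A2 had no entry.

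SLC30A3 (ZnT3), which loads zinc into synaptic vesicles of neurons, had scaled signals of 0.167 for NS-si, 0.499 for Sp1-si, 0.188 for NS-si → CoCl2 and 0.764 for Sp1-si → CoCl2 cells. Both arrays of Sp1-si cells were above both arrays of NS-si cells. Sp1 silencing gave log2 ratios of 1.58 without and 2.03 with CoCl2, or 2.99-fold and 4.07-fold, with technical SDs of 0.05 and 0.04. The ratio for CoCl2 was 0.17 with the control siRNA and 0.61 with Sp1 silenced. SLC30A3 has 1 probe, and the ratios for Sp1 silencing stayed past the fold under each of the 9 alternative settings. Of these, the mean of probes, the filter to genes above background on every array and the authors' value table could not change them. RefSeq lists a pair of starts for the gene, both on the minus strand of chromosome 2 in GRCh38.p14, and which of them is used in these cells was not measured. They are shown because they differ in GC boxes, which are in capitals. The upstream start (chr2:27275347-27275596) has none in its 250 bases and the downstream start (chr2:27263048-27263297) has 2.
SLC30A3 upstream start: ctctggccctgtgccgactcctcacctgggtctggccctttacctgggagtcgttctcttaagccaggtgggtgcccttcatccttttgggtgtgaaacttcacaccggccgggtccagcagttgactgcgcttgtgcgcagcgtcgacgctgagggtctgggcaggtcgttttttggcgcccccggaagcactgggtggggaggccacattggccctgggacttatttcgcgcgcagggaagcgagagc
SLC30A3 downstream start: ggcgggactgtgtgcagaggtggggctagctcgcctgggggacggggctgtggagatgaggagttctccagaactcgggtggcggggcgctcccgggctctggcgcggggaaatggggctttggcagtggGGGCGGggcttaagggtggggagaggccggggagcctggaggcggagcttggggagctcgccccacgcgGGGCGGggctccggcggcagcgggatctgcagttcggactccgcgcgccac
The upstream window also has 2 metal response cores and the downstream window has 1, which are not marked.

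SLC30A9, a transporter of the mitochondrial membrane, was at 0.142 for NS-si, 0.213 for Sp1-si, 0.124 for NS-si → CoCl2 and 0.253 for Sp1-si → CoCl2 cells. Its level was higher in Sp1-si cells in both pairs, with log2 ratios of 0.58 without and 1.03 with CoCl2. The second ratio had a technical SD of 0.06 and was 0.61 with normexp. The remaining exporters stayed within 0.66 of 0 on the log2 scale in every comparison. SLC30A5, SLC30A6 and SLC30A7, which supply zinc to the early secretory pathway, gave log2 ratios between -0.38 and 0.33 for CoCl2 and between -0.48 and 0.42 for Sp1 silencing. SLC30A2, a vesicular exporter, was lower in Sp1-si cells, with ratios of -0.49 without and -0.66 with CoCl2, at scaled signals of 0.0657 or less. SLC30A4 and SLC30A10, the second of which exports manganese, gave ratios between -0.35 and 0.24. For several of these genes another probe gave a different ratio. The dimmer SLC30A4 probe was lower in Sp1-si cells, with ratios of -1.28 without and -1.53 with CoCl2, against -0.16 and -0.35 for the brighter one. The second SLC30A7 probe was at -0.60 and -1.08 where the brighter one was at 0.13 and 0.15. For CoCl2 in NS-si cells this second probe was at 0.52 and the brighter one at -0.38. The second SLC30A6 probe was at -0.41 without CoCl2 where the brighter one was at 0.42. The ratios of the 3 SLC30A5 probes spanned at most 0.38 in any comparison.

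Of the 4 genes lower past the fold after Sp1 silencing without CoCl2, and of the 5 with it, SLC39A8, SLC39A10 and SLC39A11 are zinc importers. These counts use the brightest probes, and the importers are 14 of the 30 genes. Of 14 SLC39A genes, 10 had a log2 ratio below 0 without CoCl2, with a median of -0.24. With CoCl2, 10 of 13 were below 0, with a median of -0.50, while the median of all genes was -0.01 in both cases. Leaving out the scaling would raise every ratio with CoCl2 by 0.40, which is less in size than that median. It would still bring SLC39A2 (-0.35), SLC39A3 (-0.08) and SLC39A5 (-0.09) above 0, so that fewer than 10 of the 13 stay below it. SLC39A10 (ZIP10), an importer of the plasma membrane, had scaled signals of 1.99 for NS-si, 0.878 for Sp1-si, 1.57 for NS-si → CoCl2 and 0.34 for Sp1-si → CoCl2 cells. The lowest signal was that of Sp1-si → CoCl2 cells, and the untreated Sp1-si cells were next. The log2 ratios for Sp1 silencing were -1.18 without and -2.20 with CoCl2, or 2.27-fold and 4.61-fold lower, with technical SDs of 0.03 and 0.04. CoCl2 gave -0.35 with the control siRNA and -1.37 with Sp1 silenced, so that SLC39A10 was 1 of 2 members whose CoCl2 ratios differed past the fold (-1.02, downwards, background 2.86%). No member had a higher CoCl2 ratio in Sp1-si cells past the fold (background 0.994%), and 2, SLC30A1 and SLC39A2, had one higher by at least 0.6 (background 5.1%). As many, SLC39A10 and MTF1, had one lower by at least 0.6 (background 7.8%). The difference for SLC39A10 fell short of the fold with each other scaling and with normexp, and was -0.57 without scaling, whereas its ratios for Sp1 silencing stayed past the fold under all 9 alternative settings. As for SLC30A3, some of these settings could not change them. SLC39A10 has 1 probe, and the probes of MTF1 and SLC31A1, described below, split on the Sp1-si → CoCl2 array.

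SLC39A11 (ZIP11), an importer found in the Golgi and nucleus, had scaled signals of 5.08 for NS-si, 1.63 for Sp1-si, 5.61 for NS-si → CoCl2 and 1.76 for Sp1-si → CoCl2 cells. Its level was set apart by Sp1 silencing and differed little with CoCl2. Sp1-si cells were 3.11-fold lower without and 3.19-fold lower with CoCl2, log2 ratios of -1.64 and -1.67 with a technical SD of 0.03, whereas CoCl2 gave 0.14 and 0.11. A second probe gave -1.49 and -1.70 for Sp1 silencing, close to the first. The windows before the starts of SLC39A10 (chr2:195656708-195656957, plus strand, the first start listed) and SLC39A11 (chr17:73092689-73092938, minus strand) are shown, in GRCh38.p14 and with GC boxes in capitals, because among the 30 genes SLC39A11 had the lowest ratio for Sp1 silencing without CoCl2 and SLC39A10 the lowest with it.
SLC39A10: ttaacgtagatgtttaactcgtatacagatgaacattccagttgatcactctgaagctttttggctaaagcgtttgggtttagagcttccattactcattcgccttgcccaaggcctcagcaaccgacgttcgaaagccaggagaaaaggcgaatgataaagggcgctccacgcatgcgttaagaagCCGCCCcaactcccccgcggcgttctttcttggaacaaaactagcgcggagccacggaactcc
SLC39A11: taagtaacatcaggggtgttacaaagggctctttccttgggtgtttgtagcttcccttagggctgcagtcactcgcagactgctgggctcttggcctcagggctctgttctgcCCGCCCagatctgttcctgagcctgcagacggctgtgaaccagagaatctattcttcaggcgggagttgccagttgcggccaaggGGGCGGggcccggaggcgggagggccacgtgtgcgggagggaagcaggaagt
The SLC39A10 window has 1 GC box, 63 bases before the start and on the opposite strand, and the SLC39A11 window has 2, at 137 and 52 bases. A second SLC39A10 start in the table (window chr2:195656976-195657225) has 0. Neither gene has a metal response core in these windows.

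SLC39A8 (ZIP8), which imports zinc, manganese and cadmium, was at 2.24 for NS-si, 0.886 for Sp1-si, 1.43 for NS-si → CoCl2 and 0.63 for Sp1-si → CoCl2 cells. It was lower in both kinds of cells with CoCl2 and lower again in Sp1-si cells. The log2 ratios were -1.34 and -1.19 for Sp1 silencing without and with CoCl2 and -0.64 and -0.49 for CoCl2 without and with Sp1 silencing, with technical SDs of 0.03 or 0.04. Without scaling between the arrays, the ratio for Sp1 silencing with CoCl2 was -0.79. SLC39A8 has 1 probe. SLC39A13 (ZIP13), which moves zinc out of vesicles for connective tissue development, went the other way. It had scaled signals of 15.0 for NS-si, 27.2 for Sp1-si, 13.3 for NS-si → CoCl2 and 25.5 for Sp1-si → CoCl2 cells. Its log2 ratios of 0.86 and 0.94 for Sp1 silencing were short of the fold, and those for CoCl2 were -0.17 and -0.10.

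SLC39A1 is an importer of the plasma membrane, SLC39A6 a relative of SLC39A10 and SLC39A7 the zinc gate of the endoplasmic reticulum. By the brightest probes, they had the highest ratios for CoCl2 in NS-si cells among the 30 genes. Their log2 ratios were 0.49, 0.38 and 0.34. In Sp1-si cells they were 0.14, 0.20 and 0.13. SLC39A1 had scaled signals of 3.93 for NS-si, 3.47 for Sp1-si, 5.54 for NS-si → CoCl2 and 3.82 for Sp1-si → CoCl2 cells, so that NS-si → CoCl2 cells stood above the others. SLC39A6 was at 2.34, 1.80, 3.04 and 2.07 in the same order, and its second probe gave ratios within 0.05 of the first. SLC39A7 was at 1.79, 1.46, 2.26 and 1.59. All 3 were lower in Sp1-si cells, with log2 ratios between -0.37 and -0.18 without CoCl2 and between -0.55 and -0.50 with it. SLC39A2, a dim plasma membrane importer, was at 0.107 for NS-si, 0.0545 for Sp1-si, 0.0739 for NS-si → CoCl2 and 0.0578 for Sp1-si → CoCl2 cells. NS-si cells stood above the other 3 cultures, and the ratio for Sp1 silencing without CoCl2 was -0.97 with a technical SD of 0.08. SLC39A9 was lower in Sp1-si cells, with ratios of -0.77 without and -0.79 with CoCl2. SLC39A3, SLC39A4, the intestinal zinc importer, SLC39A5 and SLC39A14, an importer of zinc and iron, stayed between -0.31 and 0.18 in every comparison. The dimmest SLC39A3 probe was lower with CoCl2, with a ratio of -0.82 for NS-si and -0.79 for Sp1-si cells, and a dim SLC39A14 probe was higher by 0.95 and 0.85, unlike the brighter probes of these genes.

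SLC39A12, an importer known mainly from brain, had processed signals of 23.4 for NS-si, 50.6 for Sp1-si, 9.97 for NS-si → CoCl2 and 9.07 for Sp1-si → CoCl2 cells, the last of which was not well above background. Its log2 ratio was 1.16 for Sp1 silencing without CoCl2 and -1.01 for CoCl2 in NS-si cells, with technical SDs of 0.19 and 0.17. In Sp1-si cells it was at least 5.78-fold lower with CoCl2, where the dim side was taken as the larger of its own signal and the dimmest signal that passed on that array. This bound holds for the processed signals only and takes the 50.6 for Sp1-si cells without its error. With normexp, the ratio for CoCl2 in NS-si cells was 0.01 and that for Sp1 silencing 0.55. The plot of scaled signals by array shows each of these genes on the 4 arrays.

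**Figure D3:**
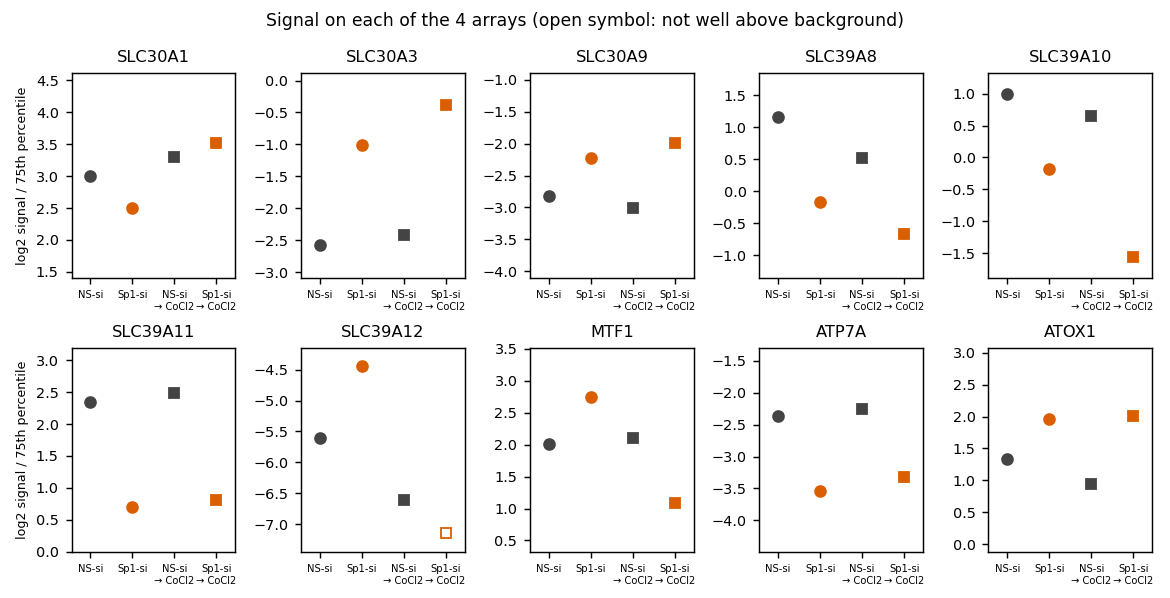
Scaled signal (log2 of the signal over the 75th percentile of its array) on the 4 arrays for the members past the fold in any comparison, 1 panel per gene, 1 point per array (grey for NS-si, orange for Sp1-si, squares with CoCl2, open where not well above background) and without error bars, since each condition is 1 array. The y axis is centred on each gene, and its span is nearly the same in all panels. SLC39A11 and SLC39A8 step down with Sp1-si, SLC30A3 steps up, and MTF1 and SLC39A10 are lowest in Sp1-si → CoCl2 cells.

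MTF1, the metal-sensing factor itself, had scaled signals of 4.01 for NS-si, 6.74 for Sp1-si, 4.32 for NS-si → CoCl2 and 2.13 for Sp1-si → CoCl2 cells. Sp1-si cells had the highest signal without CoCl2 and the lowest with it. CoCl2 gave a log2 ratio of 0.10 with the control siRNA and -1.66 with Sp1 silenced, a difference of -1.76 against a technical SD of 0.04. Sp1 silencing gave 0.75 without and -1.02 with CoCl2. This rests on the brighter of 2 probes. The other one, with scaled signals of 0.0261, 0.0496, 0.0296 and 0.0477 in the same order, gave 0.93 without and 0.69 with CoCl2 for Sp1 silencing and -0.05 for CoCl2 in Sp1-si cells. Both probes were thus higher in Sp1-si cells without CoCl2 and disagreed on the array with both treatments. With the mean of the probes, the ratio for Sp1 silencing with CoCl2 was -0.16 and that for CoCl2 in Sp1-si cells -0.86. The first of these was past the fold under 3 of 9 alternative settings. They were the authors' value table, kept outlier spots and the filter to genes above background on every array, which moved it little or not at all.

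The metallothioneins, small proteins that bind zinc and copper and whose genes MTF1 activates, were set beside it. Of 11 metallothionein genes 10 were measured, and 7 were higher past the fold with CoCl2 in NS-si cells (background 3.79%). The median over the 10 was 1.58. In Sp1-si cells 7 were higher (background 3.47%), with a median of 3.04. The counts use the brightest probes, and for MT1H the second probe gave 0.89 in NS-si cells where the brightest gave 1.79. MT2A had scaled signals of 4.92 for NS-si, 6.37 for Sp1-si, 22.4 for NS-si → CoCl2 and 73.2 for Sp1-si → CoCl2 cells, and MT1X 1.39, 1.66, 4.79 and 19.3. The array with both treatments was the highest for both genes, as it was for SLC30A1. The log2 ratio for CoCl2 was 2.19 and, with Sp1 silenced, 3.52 for MT2A and 1.78 and 3.54 for MT1X. MT1A, MT1M and MT3 stayed short of the fold, with ratios of 0.08, -0.18 and 0.23 in NS-si cells. The CoCl2 ratio was larger in Sp1-si cells past the fold for 6 of the 10 genes (background 0.994%), with a median difference of 1.40. Metallothionein transcripts are close copies of each other, so that a probe may take up those of its neighbours and 7 higher probes need not be 7 higher genes. How far they do was not tested.

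**Figure D4:**
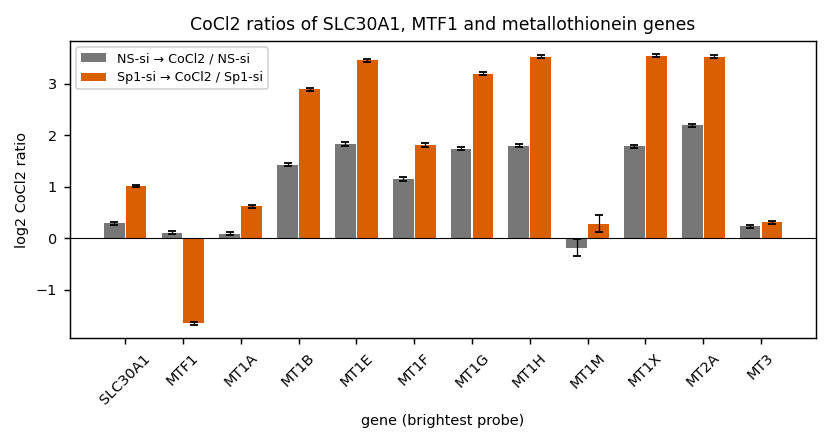
Log2 ratios for CoCl2 of SLC30A1, MTF1 and the 10 measured metallothioneins at their brightest probes, as bars from 0, grey for NS-si and orange for Sp1-si cells; error bars are the technical SD and do not cover differences between cultures. The orange bar is above the grey one for SLC30A1 (1.01 and 0.29) and MT2A (3.52 and 2.19) and points down for MTF1 (-1.66).

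Among the copper transport genes, ATP7A and ATOX1 were set apart by Sp1 silencing. ATP7A, the copper pump of most tissues, had scaled signals of 0.194 for NS-si, 0.0862 for Sp1-si, 0.211 for NS-si → CoCl2 and 0.0997 for Sp1-si → CoCl2 cells. Both arrays of Sp1-si cells were below both arrays of NS-si cells, with log2 ratios of -1.17 without and -1.08 with CoCl2 and a technical SD of 0.07. CoCl2 gave 0.12 and 0.21. ATP7A has 1 probe. The ratio with CoCl2 fell short of the fold without scaling (-0.68), with quantile normalization (-0.97), with median scaling (-0.97) and with normexp (-0.85), and normexp also brought the ratio without CoCl2 to -0.82. The window before its start (GRCh38.p14, chrX:77910443-77910692, plus strand) is shown because ATP7A was lower in Sp1-si cells in both pairs. It has no match to the GC box, so that no letters are in capitals.
ATP7A: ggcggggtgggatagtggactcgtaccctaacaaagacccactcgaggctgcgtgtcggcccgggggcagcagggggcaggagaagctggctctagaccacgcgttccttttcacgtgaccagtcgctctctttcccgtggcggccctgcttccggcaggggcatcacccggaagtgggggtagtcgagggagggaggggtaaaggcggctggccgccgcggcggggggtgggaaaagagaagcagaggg
A palindromic hypoxia response core lies 138 bases before the start and is not marked. That no GC box was found says only that these letters are not in this window.

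ATOX1, the chaperone that hands copper to both ATPases, was at 2.51 for NS-si, 3.89 for Sp1-si, 1.93 for NS-si → CoCl2 and 4.05 for Sp1-si → CoCl2 cells. It was higher in Sp1-si cells by log2 ratios of 0.63 without and 1.07 with CoCl2, the second with a technical SD of 0.03. CoCl2 gave -0.38 with the control siRNA and 0.06 with Sp1 silenced. ATP7B, the pump of liver, gave ratios between -0.41 and 0.10 and SLC31A2 ratios between -0.40 and -0.01.

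SLC31A1, the copper importer of the plasma membrane, has 4 probes that split on 1 array. The brightest had scaled signals of 0.924 for NS-si, 0.81 for Sp1-si, 1.04 for NS-si → CoCl2 and 1.01 for Sp1-si → CoCl2 cells, and none of its log2 ratios exceeded 0.32 in size. The next one had 0.67, 0.59, 0.73 and 0.273 in the same order. On the first 3 arrays all 4 probes followed each other, with ratios between 0.12 and 0.20 for CoCl2 in NS-si cells and between -0.20 and -0.16 for Sp1 silencing without CoCl2. In Sp1-si → CoCl2 cells the other 3 probes were lower, with ratios of -1.11, -1.17 and -0.98 against Sp1-si cells and of -1.42, -1.46 and -1.39 against NS-si → CoCl2 cells. The difference of their CoCl2 ratios was -1.23, -1.30 and -1.18, against 0.15 for the brightest probe. Which transcripts each probe reads was not tested. The counts above use the brightest and so leave SLC31A1 out, although the other 3 were past the fold for Sp1 silencing with CoCl2.

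**Figure D5:**
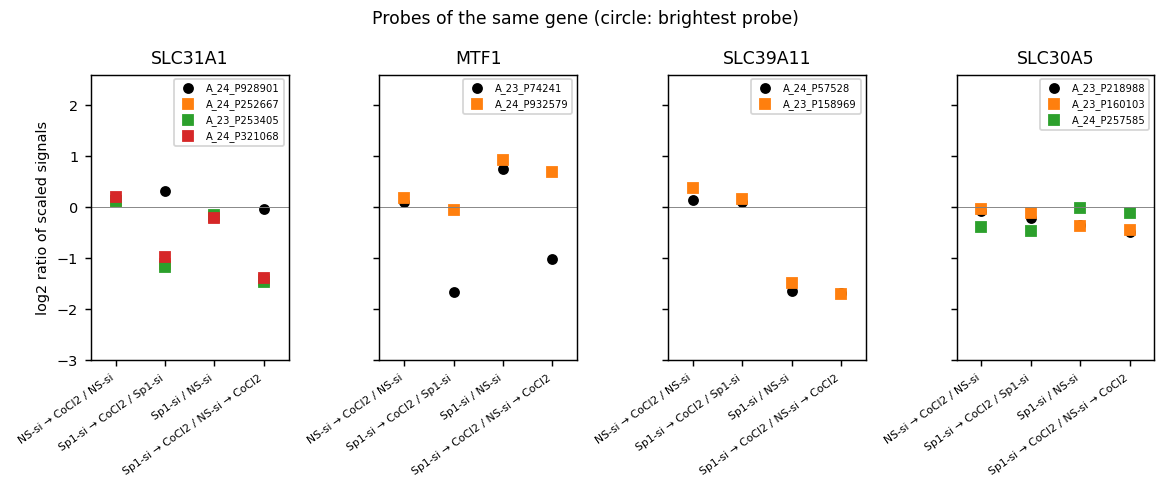
Log2 ratios in the 4 comparisons for each probe of SLC31A1, MTF1, SLC39A11 and SLC30A5; the black circle is the brightest probe of the gene and squares are the others. The probes of SLC39A11 lie together, whereas 3 probes of SLC31A1 lie near -1.4 and the brightest near 0 for Sp1 silencing with CoCl2, and the MTF1 probes part at 0.69 and -1.02 there.

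In all, 11 of the 30 genes have several probes, and 10 have at least 2 that passed on every array. The median range between probes of these 10 genes was 0.29 for CoCl2 in NS-si cells, 0.38 in Sp1-si cells, 0.28 for Sp1 silencing without and 0.38 with CoCl2. The widest ranges were 1.60 and 1.70, for MTF1 in the comparisons that use the Sp1-si → CoCl2 array. These widest ranges are far wider than the technical SD of the dimmer MTF1 probe, 0.11 and 0.12 in the same comparisons. Not every range was wider. The SLC39A6 probes differed by 0.02 for CoCl2 in NS-si cells, where the technical SD of the brighter one was 0.03.

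Proteins that carry copper inside the cell, reduce it or use it formed a further list of 17 genes, of which 15 were measured. Their median ratios lay between -0.22 and 0.09 in the 4 comparisons. STEAP2, a reductase of iron and copper ions, had scaled signals of 0.197 for NS-si, 0.488 for Sp1-si, 0.032 for NS-si → CoCl2 and 0.117 for Sp1-si → CoCl2 cells. It was lower with CoCl2 in both kinds of cells (-2.62 and -2.06) and higher in Sp1-si cells in both pairs (1.31 and 1.88). SOD3, the extracellular superoxide dismutase that holds copper and zinc, was lower in Sp1-si cells, at 0.113 against 0.544 without and 0.102 against 0.469 with CoCl2. COX11, which delivers copper to cytochrome c oxidase, was lower in Sp1-si cells, with ratios of -1.07 and -1.65 at its brightest probe, and 3 of its 5 probes stayed between -0.87 and -0.25. COX19, of the same pathway, was the only gene of the list past the fold upwards with CoCl2 in NS-si cells (1.24), where its second probe gave 0.91. SOD1, CP, CCS, CUTA, COX17, SCO1 and SCO2 were short of the fold in every comparison.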

How the data were processed

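The deposited intensities were written by the authors' scanner software (Agilent Feature Extraction 10.5.1.1, array annotation on build NCBI36, per the file headers), after background subtraction and detrending and without normalization between arrays. The deposited value table is the same intensity times 1 constant per array (1.25 to 1.58, with column medians from 197 to 220), and how the constants were chosen is not given in the sources used here.

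Log2 intensities of non-control spots, outlier spots left out, were scaled to the 75th percentile of each array. A probe was well above background where at least 50% of its spots were. Accessions gave a symbol for 28463 of 29296 spots with a RefSeq accession. Of several probes of a gene, the brightest on average stands for it. Described in full were members past a log2 ratio of 1 and the 3 highest and 3 lowest per comparison. The rule for the genes uses names only, but the set and the lists were chosen with earlier results of these data known. Simulated data were made from the NS-si array with random noise added. In them, 200 of 200 planted changes among 41000 probes were recovered and 0 others were called. The planted changes were larger than the fold and far larger than the noise, and every probe counted as well above background. The result checks the code only and cannot speak for dim probes or for differences between cultures. Alternatives were other scalings, outliers kept, the mean of probes, a stricter filter, a log2 ratio of 0.6, and normexp (offset 50), run on each spot's median signal, a choice made with the data in hand since mean signals were not analysed here. Python 3.11.15, numpy 2.4.6, pandas 2.3.3, matplotlib 3.10.9, R 4.3.3 and limma 3.58.1 were used. Some marker genes are not reported here.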

Additional observations from a re-analysis of the deposited data

How the results depend on the processing

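No paired analysis was possible because each condition has 1 array and the conditions share no replicate block, and no array could be left out for the same reason. In this paragraph the comparisons are CoCl2 in NS-si cells (A), CoCl2 in Sp1-si cells (B), Sp1 silencing without CoCl2 (C) and with CoCl2 (D), and the difference of the CoCl2 ratios (E), and counts are of members past the fold. Without scaling the median of all genes moved by -0.23 (A), 0.22 (B), -0.05 (C), 0.40 (D) and 0.45 (E), and the members' medians were -0.27 (A), 0.22 (B), -0.21 (C), 0.23 (D) and 0.42 (E), with 2 lower in D, and 2 higher and 1 lower in E. Quantile normalization gave a median of -0.093 (A), 0 higher in B, 3 lower in D and 1 lower in E. Median scaling gave 0 lower in A, 3 lower in D, 1 lower in E, and medians of 0.10 (B), -0.061 (D) and 0.070 (E). The percentile over probes above background on all 4 arrays gave a median of -0.091 (A) and 1 lower in E. The mean over probes gave 1 lower in B and medians of 0.078 (A), -0.066 (B), -0.28 (D) and -0.11 (E). It also gave 5 lower in D, but not the same genes, since MTF1 was then at -0.16. The filter to genes above background on all 4 arrays gave 0 lower and a median of 0.018 in A and 1 higher in C. At a log2 ratio of 0.6 there were 2 lower in A, 2 higher in B, 5 higher in C and 2 higher in E. Normexp gave 0 lower in A, 0 higher in B, 1 higher in C, 3 lower in D, 1 lower in E, and medians of 0.023 (A), -0.037 (B), -0.087 (C), -0.28 (D) and -0.071 (E), and SLC39A12 in A turned from -1.01 to 0.0071. The cause was not tested where the construction of a setting does not show it. Apart from the log2 ratio of 0.6, shares of all genes past the fold are not given for the alternative settings. The counts of members under those settings therefore have no background to be read against. The value table and kept outlier spots moved no count or median beyond the limits used. Counts that changed within these limits were 5 lower in C and 4 higher in D without scaling, and 4 higher in D with median scaling. The percentile over probes above background on all 4 arrays gave 4 lower in D, and normexp gave 3 lower in C and 2 higher in D. At a log2 ratio of 0.6 there were also 6 lower in C, and 4 higher and 7 lower in D. Ratios of SLC30A3, SLC39A10, SLC39A11 and ATOX1 for Sp1 silencing that were past the fold stayed so under all 9 settings. The authors' value table and the filter to genes above background on all 4 arrays could not change these ratios. Nor could the mean of probes for SLC30A3, SLC39A10 and ATOX1, which have 1 probe each. Of the 1248 values of single genes, 846 moved by less than the technical SD, 401 by more and 1 reversed. Dim probes limit SLC39A12 and SLC30A8.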

Other observations

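Transporters of other divalent metals and iron, 9 genes, were not described above. SLC41A3, a magnesium transporter of mitochondria, had scaled signals of 2.94 for NS-si, 11.7 for Sp1-si, 2.79 for NS-si → CoCl2 and 11.1 for Sp1-si → CoCl2 cells. Both arrays of Sp1-si cells stood above both arrays of NS-si cells, and each pair gave 1.99 on the log2 scale. SLC41A1, a magnesium exporter of the same family, was at 0.658, 2.11, 1.42 and 2.90 in the same order. It was higher in Sp1-si cells by 1.68 without and 1.03 with CoCl2 and higher with CoCl2 by 1.11 for NS-si and 0.46 for Sp1-si cells. SLC41A2 was at -0.56 without and -0.24 with CoCl2 for Sp1 silencing, and was higher with CoCl2 by 0.65 for NS-si and 0.97 for Sp1-si cells. SLC40A1 (ferroportin), the iron exporter, was well above background in both kinds of Sp1-si cells only, with a scaled signal of 0.0101 without and 0.0246 with CoCl2, a log2 ratio of 1.28. SLC11A2, which carries ferrous iron, and TFRC, the transferrin receptor, stayed at their brightest probes between -0.50 and 0.38 in every comparison. The brightest of 3 SLC11A1 probes was higher in Sp1-si cells by 0.99 without and 1.05 with CoCl2, and its other probes were between -0.41 and 0.04. TRPM7, a channel for magnesium and zinc, has probes that split on the same array as those of SLC31A1. The brighter probe was at -0.01 for Sp1 silencing with CoCl2 and the dimmer one at -1.87, while they gave -0.06 and -0.12 without CoCl2.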
